A study of Mus musculus with 12 samples.

Results

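The genes described here encode the NKG2 family and other killer cell receptors. They are 9 of the 56748 genes in a count table of whole mouse lung, taken from that table by gene name: Klrk1, Klrd1, Klrc1, Klrc2, Klrc3, Klrb1c, Klrg1, Klre1 and Ncr1. All 9 are annotated as protein coding, and all 9 had enough reads to be tested. The lungs came from MMTV-PyMT mice at 4.5 months of age, in which the mammary tumour virus promoter drives the polyoma middle T oncogene mainly in mammary epithelium, and the samples are labelled as carrying lung metastasis. The S1pr1 KO group was MMTV-Cre;S1pr1fl/fl;MMTV-PyMT and the C3 KO group was MMTV-Cre;C3Tdt:MMTV-PyMT. The WT group was MMTV-Cre;MMTV-PyMT by the design text, so that all 3 groups carried the oncogene and Cre, although the strain label of WT names MMTV-PyMT only. There were 4 libraries in each group. Cre was driven by the same mammary promoter, so a deletion in lung cells is not given by the design, and the inbred background of the strains is not given in the sources used here. The labels do not state that each library is a separate animal, so the p-values cover the spread among these libraries, which may be technical.

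Natural killer (NK) cells read their surroundings through paired activating and inhibitory receptors. NKG2A, NKG2C and NKG2E (Klrc1, Klrc2, Klrc3) reach the cell surface bound to CD94 (Klrd1) and recognise the non-classical class I molecule Qa-1, encoded by H2-T23, whereas NKG2D (Klrk1) works without CD94 and binds stress-induced ligands of the Rae1, H60 and MULT1 families. NKR-P1C (Klrb1c) and NKp46 (Ncr1) are used to recognise mouse NK cells, KLRG1 (Klrg1) is an inhibitory receptor for cadherins on mature NK and effector T cells, and Klre1 encodes a further lectin-like receptor that pairs with other lectin-like chains. Ncr1 is an immunoglobulin-like receptor and not a lectin. Most of these genes, and the Ly49 (Klra) receptors, lie side by side in the NK gene complex on mouse chromosome 6.

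Coordinates of the genes in the files follow GRCm39. On chromosome 6, Klre1 (ENSMUSG00000050241) runs from 129554868 to 129562790 and Klrd1 (ENSMUSG00000030165) from 129568745 to 129575738, both on the plus strand. They are followed on the minus strand by Klrk1 (ENSMUSG00000030149, 129587286 to 129600827), Klrc3 (ENSMUSG00000033027, 129616027 to 129620300), Klrc2 (ENSMUSG00000052736, 129624459 to 129637652) and Klrc1 (ENSMUSG00000030167, 129642978 to 129655936). Klrb1c (ENSMUSG00000030325) lies at 128755448 to 128766178 of the same chromosome. Klrg1 (ENSMUSG00000030114) lies outside the complex, at 122247555 to 122259841. Ncr1 (ENSMUSG00000062524) is on chromosome 7, from 4340723 to 4348163.

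The 250 bases before the annotated starts of Klrc2, Klrc3, Klrc1 and Klrk1 are shown because these are the NKG2 genes whose levels stood apart in S1pr1 KO lungs. They are RefSeq sequence of build GRCm38.p6, another build than that of the count table, and each is on the minus strand: chr6:129660557-129660806 for Klrc2 (the nearer of its annotated windows to Klrc3), chr6:129643289-129643538 for Klrc3, chr6:129678974-129679223 for Klrc1 and chr6:129623865-129624114 for Klrk1. Capitals mark TGTGGT, the core letters of RUNX motifs, or its reverse complement ACCACA.
Klrc2: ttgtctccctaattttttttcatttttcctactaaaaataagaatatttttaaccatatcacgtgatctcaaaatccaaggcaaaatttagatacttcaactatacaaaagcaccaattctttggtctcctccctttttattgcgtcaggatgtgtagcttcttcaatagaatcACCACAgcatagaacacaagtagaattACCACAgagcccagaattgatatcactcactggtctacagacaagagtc
Klrc3: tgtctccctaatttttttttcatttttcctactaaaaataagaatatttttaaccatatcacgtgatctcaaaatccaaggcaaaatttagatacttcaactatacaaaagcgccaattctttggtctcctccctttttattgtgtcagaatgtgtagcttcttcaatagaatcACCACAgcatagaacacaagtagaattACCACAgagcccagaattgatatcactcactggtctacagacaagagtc
Klrc1: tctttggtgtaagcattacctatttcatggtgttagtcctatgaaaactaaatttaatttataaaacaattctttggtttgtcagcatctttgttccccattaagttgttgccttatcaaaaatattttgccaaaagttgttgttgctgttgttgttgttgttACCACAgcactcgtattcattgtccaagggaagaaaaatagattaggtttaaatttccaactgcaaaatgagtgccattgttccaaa
Klrk1: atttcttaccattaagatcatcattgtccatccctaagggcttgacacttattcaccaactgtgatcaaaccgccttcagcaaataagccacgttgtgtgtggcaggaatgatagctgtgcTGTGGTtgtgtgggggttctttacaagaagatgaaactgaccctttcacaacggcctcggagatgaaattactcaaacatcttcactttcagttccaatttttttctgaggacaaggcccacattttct
Klrc2 and Klrc3 were 98.01% identical here, with 246 identical bases, 3 mismatches and 2 gap bases in a global alignment, whereas Klrc1 was 51.81% identical to Klrc2 and 52.35% to Klrc3. The marked letters stood 76 and 49 bases before the start in both Klrc2 and Klrc3, 87 bases before it in Klrc1 and 129 bases before it in Klrk1. In the other annotated window of Klrc2 (chr6:129660597-129660846) they stood 36 and 9 bases before the start. The identity of that window to Klrc3 was 70.79%. RefSeq windows were matched for 7 of the 9 genes by symbol. TGTGGT was found on either strand in all 7 of these genes, in 9 of their 10 windows, against 14% of 32851 windows of all genes. The 10 windows are not separate sequences, so the same letters are counted more than once. Windows of the same gene overlap, with 210 identical bases in those of Klrc2 and 241 in those of Ncr1. Klrc2 and Klrc3 are near copies as well. The shares of all genes are per window and not per gene. AGGAAG (ETS) was found in 2 of the 7 genes (29.5% of all windows), and neither AGGTGTGA (T-box, 1.12% of all windows) nor TGANTCA (AP-1, 6.75%) was found in any. These matches are letters in a window and were not tested for binding.

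Total counts lay between 32274797 and 53063470 reads a library, with 26691 to 28277 genes detected. The check of the labels did not hold in 1 library of each knockout. The library labelled S1pr1 KO 2 had 366 CPM of S1pr1 (CPM, counts scaled to library size), within the WT range of 295 to 491 CPM, where the other S1pr1 KO libraries had 132 to 154 CPM. The library labelled C3 KO 4 had 1416 CPM of C3, more than any WT library (787 to 1025 CPM), where the other C3 KO libraries had 465 to 601 CPM. The values below use all 12 libraries, and those that changed most without these 2 libraries are given beside them or together at the end. Genes of lung epithelium and vessels were abundant in every library, with a mean log2 CPM of 11.28 to 11.62 in S1pr1 KO, 11.48 to 11.59 in C3 KO and 11.54 to 11.66 in WT over 6 genes.

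All 9 receptor genes had a higher mean in S1pr1 KO lungs than in WT lungs (49.8% of all genes did by fold change), and Klrc2, the activating NKG2C chain, was the one that passed the test (edgeR quasi-likelihood, Benjamini-Hochberg adjusted p under 0.05 over 20229 genes). Of all genes tested, 1.35% passed in either direction and 0.821% passed as higher in S1pr1 KO. The log2 fold changes of the 9 genes ran from 0.097 for Klrd1 to 1.89 for Klrc2, with a median of 1.03, against a median of -0.00108 over all genes tested. In 6 of the 9 genes (Klrk1, Klrc1, Klrc2, Klrc3, Klre1 and Ncr1) every S1pr1 KO library lay above every WT library, a pattern seen in 6.16% of all genes. An unadjusted p under 0.05 was reached by 8 of the 9, all but Klrd1, against 9.94% of all genes in that direction and 18% in either direction. In bulk tissue, a difference in the number of cells of a type and a difference in RNA per cell cannot be told apart. Since the inbred background is not given, a difference in background between the groups cannot be told apart from one of the targeted gene.

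**Figure D1:**
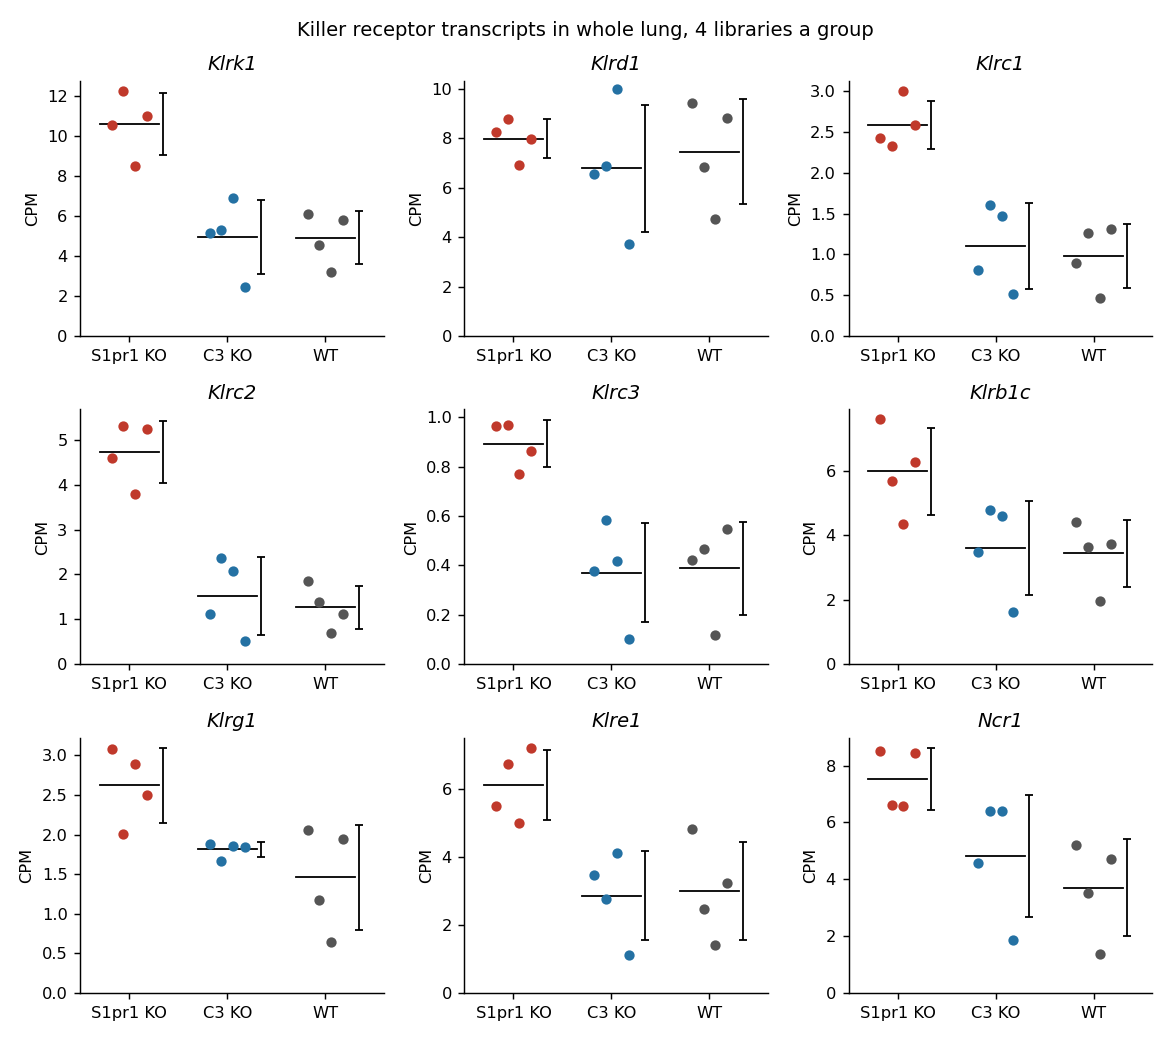
Each panel plots the level of 1 gene in CPM (vertical axis, from 0) in the S1pr1 KO, C3 KO and WT libraries. Points are libraries, horizontal lines are means and bars are SD (n = 4). For Klrc2 the S1pr1 KO libraries sit between 3.80 and 5.29 CPM, above every other library, whereas for Klrd1 the 3 groups overlap.

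Among the CD94 partners, Klrc2 was at 4.60, 5.29, 3.80 and 5.22 CPM in the S1pr1 KO libraries, at 1.13, 2.37, 2.08 and 0.512 CPM in the C3 KO libraries and at 1.85, 1.40, 0.703 and 1.12 CPM in the WT libraries. Every S1pr1 KO library thus lay above all the other libraries of the study for this gene. Klrc2 averaged 4.73 ± 0.694 CPM in S1pr1 KO and 1.27 ± 0.481 CPM in WT (SD, n = 4 each) and rose by 1.89 on the log2 scale (SE 0.399, edgeR adjusted p = 0.0440). Its reads numbered 143 to 243 in S1pr1 KO libraries and 24 to 79 in WT libraries. Without the libraries labelled S1pr1 KO 2 and C3 KO 4, the value was 1.83 (edgeR adjusted p = 0.0215). The call sat close to its threshold. Without S1pr1 KO 1, 2, 3 or 4 in turn the edgeR adjusted p was 0.0667, 0.0753, 0.0738 or 0.124, without C3 KO 1 it was 0.0561, and without WT 1, 2, 3 or 4 it was 0.0760, 0.0848, 0.0852 or 0.114, while the log2 fold change stayed between 1.69 and 2.13.

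Klrc1, the inhibitory NKG2A chain, was at 2.42, 2.34, 3.00 and 2.58 CPM in S1pr1 KO, at 0.810, 1.61, 1.47 and 0.512 CPM in C3 KO and at 0.889, 1.26, 0.469 and 1.32 CPM in WT. The S1pr1 KO libraries again did not overlap with the others. The log2 fold change of Klrc1 against WT was 1.39 (SE 0.363, edgeR adjusted p = 0.0757), which did not pass. Klrc3, encoding NKG2E, was the least covered of the 9 genes, with 29 to 51 reads in S1pr1 KO, 4 to 20 reads in C3 KO and 4 to 20 reads in WT. Its level was 0.966, 0.969, 0.770 and 0.861 CPM in S1pr1 KO and 0.421, 0.466, 0.117 and 0.549 CPM in WT, with no overlap (log2 fold change 1.19, SE 0.450, edgeR adjusted p = 0.187).

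Reads of the 3 Klrc genes can be shared, since the genes are similar in sequence. Only transcripts annotated as protein coding were compared (GENCODE M21, GRCm38). Of the stretches of 50 bases in those of Klrc3, 33% also occurred in Klrc2, and of those of Klrc1 36.5% occurred in Klrc2. Klrc1 and Klrc3 shared 51 stretches, 2.51% of those of Klrc1 and 6.93% of those of Klrc3. In these transcripts no stretch was shared by a pair of the 9 genes that included any gene other than Klrc1, Klrc2 and Klrc3. When the reads of Klrc1, Klrc2 and Klrc3 were added, their level was 8.21 ± 0.522 CPM in S1pr1 KO and 2.64 ± 0.905 CPM in WT, and their log2 fold change was 1.63 (SE 0.369, edgeR adjusted p = 0.0527), just short of the threshold. Klrc2 and Klrc3 added gave 5.62 ± 0.761 CPM in S1pr1 KO and 1.66 ± 0.611 CPM in WT (1.75, SE 0.399, edgeR adjusted p = 0.0535). Klrc2 took 57.4% ± 5.09 of the Klrc reads in S1pr1 KO, 49.64% ± 3.24 in C3 KO and 48.86% ± 9.47 in WT, and these shares overlapped between groups (50.18% to 61.56% in S1pr1 KO, 37.61% to 58.52% in WT).

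Klrd1, the CD94 chain that Klrc1, Klrc2 and Klrc3 need, was at 8.25, 8.77, 6.93 and 7.99 CPM in S1pr1 KO, at 6.56, 6.88, 9.995 and 3.71 CPM in C3 KO and at 9.43, 6.83, 4.74 and 8.83 CPM in WT. The groups overlapped fully. Its log2 fold change in S1pr1 KO against WT was 0.097 (SE 0.265, edgeR adjusted p = 0.894). Its sign was negative without WT 3 (-0.068) and with the score of NK core genes as a covariate (-0.23).

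Klrk1, encoding NKG2D, was at 10.6, 12.2, 8.50 and 11.0 CPM in S1pr1 KO, at 5.15, 5.30, 6.91 and 2.46 CPM in C3 KO and at 6.11, 4.55, 3.19 and 5.79 CPM in WT. All S1pr1 KO libraries were above all others. Klrk1 averaged 10.57 ± 1.56 CPM in S1pr1 KO and 4.91 ± 1.33 CPM in WT (SD, n = 4 each). The log2 fold change was 1.10 and did not pass (SE 0.275, edgeR adjusted p = 0.0685). Without the libraries labelled S1pr1 KO 2 and C3 KO 4 it was 1.03 and passed (edgeR adjusted p = 0.0375), as it did with all libraries in DESeq2 (adjusted p = 0.00307) and limma voom (adjusted p = 0.0289), which called 5.3% and 4.59% of all genes.

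Of the receptors used to recognise NK cells, Ncr1 was at 8.50, 6.61, 6.59 and 8.43 CPM in S1pr1 KO, at 4.57, 6.41, 6.41 and 1.87 CPM in C3 KO and at 5.22, 3.51, 1.38 and 4.72 CPM in WT. The S1pr1 KO libraries lay above the others, in 2 of them only just above C3 KO 2 and C3 KO 3. The log2 fold change of Ncr1 against WT was 1.02 (SE 0.396, edgeR adjusted p = 0.198). Klrb1c ranged from 4.36 to 7.59 CPM in S1pr1 KO, from 1.61 to 4.77 CPM in C3 KO and from 1.96 to 4.40 CPM in WT, where S1pr1 KO 3 and WT 1 overlapped (log2 fold change against WT 0.80, SE 0.321, edgeR adjusted p = 0.213). Neither passed.

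Klrg1 ranged from 2.01 to 3.09 CPM in S1pr1 KO, from 1.67 to 1.88 CPM in C3 KO and from 0.644 to 2.06 CPM in WT, and S1pr1 KO 2 lay below WT 1. Its log2 fold change against WT was 0.84 (SE 0.294, edgeR adjusted p = 0.159). Klre1 ranged from 4.99 to 7.18 CPM in S1pr1 KO, from 1.10 to 4.11 CPM in C3 KO and from 1.41 to 4.82 CPM in WT, with no overlap. The log2 fold change of Klre1 was 1.03 (SE 0.385, edgeR adjusted p = 0.183). Neither passed. Without the libraries labelled S1pr1 KO 2 and C3 KO 4, the S1pr1 KO libraries lay above all WT libraries in 7 of the 9 genes, against 9.60% of all genes, and 2 of the 9, Klrk1 and Klrc2, passed, against 473 of all genes (2.31%).

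All 9 receptor genes also had a higher mean in S1pr1 KO lungs than in C3 KO lungs, but none of the 9 passed in edgeR, nor did any of the 20229 genes tested (0%). By fold change 50.7% of all genes were higher. An unadjusted p under 0.05 was reached by 6 of the 9, against 6.58% of all genes in that direction, and DESeq2 called 3 of the 9 and limma voom 0, where they called 295 (1.4%) and 36 (0.178%) of all genes. This comparison and the one above share the S1pr1 KO libraries. The log2 fold changes were 1.64 for Klrc2 (SE 0.395, edgeR adjusted p = 0.189), 1.28 for Klrc3 (SE 0.455, 0.312), 1.23 for Klrc1 (SE 0.361, 0.258), 1.10 for Klrk1 (SE 0.276, 0.208) and 1.09 for Klre1 (SE 0.386, 0.309). They were smaller for Klrb1c (0.73), Ncr1 (0.65), Klrg1 (0.53) and Klrd1 (0.24), with edgeR adjusted p from 0.395 to 0.766. The S1pr1 KO libraries lay above all C3 KO libraries in 7 of the 9 genes, all but Klrd1 and Klrb1c, against 3.55% of all genes. Without the libraries labelled S1pr1 KO 2 and C3 KO 4 this count was also 7, against 11.3% of all genes. The log2 fold changes then became 1.28 for Klrc2, 0.91 for Klrc3, 0.79 for Klrk1, 0.43 for Ncr1 and -0.019 for Klrd1.

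C3 KO and WT lungs were not told apart in any of the 9 genes. The log2 fold changes lay between -0.14 (Klrd1) and 0.37 (Ncr1), with SE up to 0.476, a median of 0.066 and a lowest edgeR adjusted p of 0.760. Of the 9 genes 6 were higher and 3 lower in C3 KO, 0 passed in edgeR, DESeq2 or limma voom, 0 had an unadjusted p under 0.05, and all 9 overlapped between the groups. Over all genes 0.00989% passed in edgeR, 0.713% in DESeq2 and 0.104% in limma voom, 11% had an unadjusted p under 0.05, 49.8% had a positive fold change, 3% lay higher in C3 KO without overlap and 3.09% lower. Klrc2 averaged 1.52 ± 0.858 CPM in C3 KO and 1.27 ± 0.481 CPM in WT (SD, n = 4 each), with its log2 fold change at 0.25 (SE 0.403), and Klrk1 averaged 4.95 ± 1.85 CPM in C3 KO and 4.91 ± 1.33 CPM in WT, a value of 0.0092 (SE 0.277). With 4 libraries a group and these errors, a difference of the size seen for Ncr1 was not detectable. Without the library labelled C3 KO 4, Klrd1 was at 0.069, Klre1 at 0.21 and Klrc3 at 0.23, a change of sign in each.

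**Figure D2:**
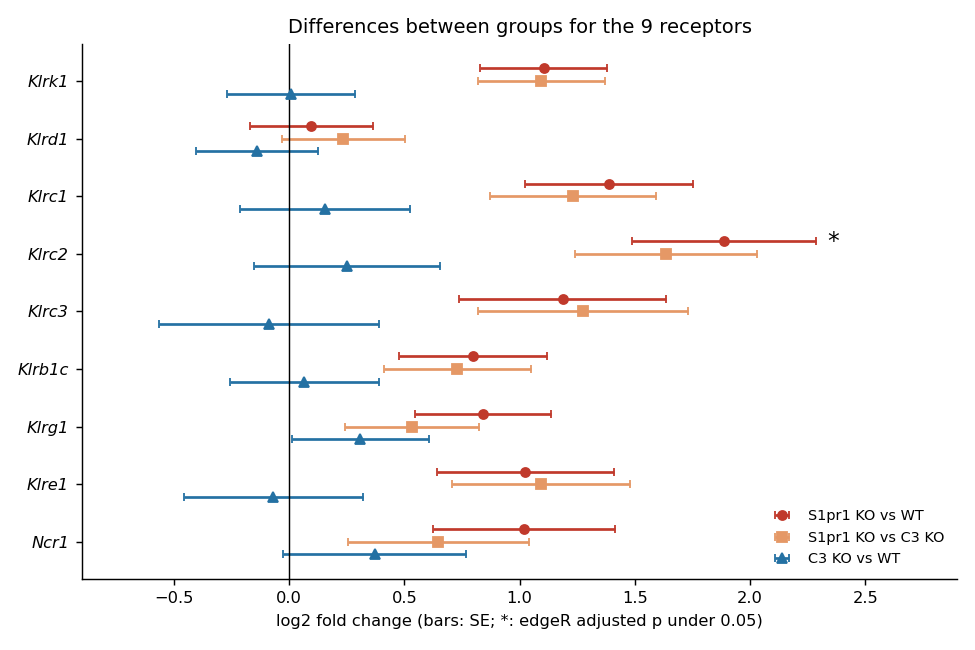
Log2 fold changes (horizontal axis) of the 9 receptor genes (rows) in S1pr1 KO vs WT (red circles), S1pr1 KO vs C3 KO (orange squares) and C3 KO vs WT (blue triangles), with SE as bars and an asterisk where the edgeR adjusted p was under 0.05. Klrc2 at 1.89 carries the only asterisk, Klrd1 lies near 0 in all comparisons, and the C3 KO vs WT values lie between -0.14 and 0.37. The comparisons share groups and are not independent.

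The levels within the knockout and WT groups had their own order. Per transcript length, in deposited FPKM values (fragments scaled by gene length and library size), Klrd1 was the most abundant, at 6.20 ± 0.618 in S1pr1 KO, 5.29 ± 2.00 in C3 KO and 5.80 ± 1.64 in WT. Ncr1 came next, at 4.86 ± 0.683 FPKM in S1pr1 KO, 3.12 ± 1.39 FPKM in C3 KO and 2.40 ± 1.10 FPKM in WT. In S1pr1 KO the means then ran through Klrb1c (2.01 FPKM), Klrg1 (1.84), Klre1 (1.74), Klrk1 (1.46), Klrc1 (1.30) and Klrc3 (1.20) to Klrc2 (0.809 FPKM), in steps within 1 SD of the higher mean except the last. Klrc2 was lowest per length in all 3 groups, with 0.262 FPKM in C3 KO and 0.217 FPKM in WT. The listed gene lengths of Klrc2 (5812 bases), Klrk1 (7183 bases) and Klre1 (3494 bases) far exceed their longest annotated coding transcripts. Those had 2811, 3197 and 1294 bases in GENCODE M21. FPKM falls as the listed length grows, so the ranks of these genes depend on that length.

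Libraries of 1 group also varied together across the receptors. Ranked from lowest to highest over the 12 libraries, the mean rank over the 9 genes was 10.6, 10.3, 8.89 and 10.4 in the S1pr1 KO libraries. The library labelled C3 KO 4 had a mean rank of 1.56 and was the lowest of 12 for 6 genes, and WT 3 had a mean rank of 1.67 and was the lowest for the other 3. Klrg1 did not share the drop in C3 KO 4, where it stood at 1.84 CPM against 1.88, 1.67 and 1.86 CPM in C3 KO 1, 2 and 3. After group means were taken away, the Pearson correlation of log2 CPM over the 12 libraries was 0.983 between Klrk1 and Klrd1, 0.644 to 0.956 between the other pairs without Klrg1, and 0.284 to 0.650 between Klrg1 and the others. These are descriptions over libraries that share their depth and tissue makeup.

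By the same measure, over 16223 genes with a mean of at least 1 CPM, the genes most like Ncr1 were Samd3 (0.962), Gzmb (0.960), Nkg7 (0.959), Klra4 (0.949) and Ccl5 (0.949). Gzmb is a granzyme, Nkg7 a protein of cytotoxic granules and Ccl5 a chemokine. Those most like Klrk1 were Klrd1 (0.983), Klre1 (0.956), the granzyme Gzma (0.955) and the Ly49 genes Klra4 (0.952) and Klra7 (0.948). Klrc2 was most like Klra14-ps (0.955), Klra8 (0.940), Med10 (0.940), Pggt1b (0.940) and Nkg7 (0.935). Klrg1 was most like another set, BC035044 (0.918), the transcription factor Maf (0.914), Arl5a (0.902), the adhesion molecule Vcam1 (0.895) and Rp2 (0.893).

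Set against Klrd1 in the same library, all 8 other receptors were higher in S1pr1 KO than in WT without overlap. These log2 ratios of counts were formed after the values of Klrd1 had been seen, they share their denominator, and no test was made. Over all genes 0.979% had a higher ratio to Klrd1 in every S1pr1 KO library. Klrk1 to Klrd1 was 0.36, 0.48, 0.29 and 0.46 in S1pr1 KO, -0.35, -0.38, -0.53 and -0.59 in C3 KO and -0.63, -0.58, -0.57 and -0.61 in WT. The ratio was positive in every S1pr1 KO library and negative in every other library, and its mean differed by 0.99 between S1pr1 KO and WT, where the SD was 0.0883 in S1pr1 KO and 0.0252 in WT. Klrc2 to Klrd1 was -0.76 ± 0.117 in S1pr1 KO, -2.29 ± 0.554 in C3 KO and -2.58 ± 0.323 in WT (SD, n = 4 each). The differences between S1pr1 KO and WT for the other ratios to Klrd1 were 1.34 for Klrc1, 1.21 for Klrc3, 1.03 for Ncr1, 1.01 for Klre1, 0.82 for Klrg1 and 0.69 for Klrb1c. Against C3 KO, the ratios of Klrk1, Klrc1, Klrc2, Klrc3 and Klre1 did not overlap (0.213% of all genes), and those of Klrb1c, Klrg1 and Ncr1 did.

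**Figure D3:**
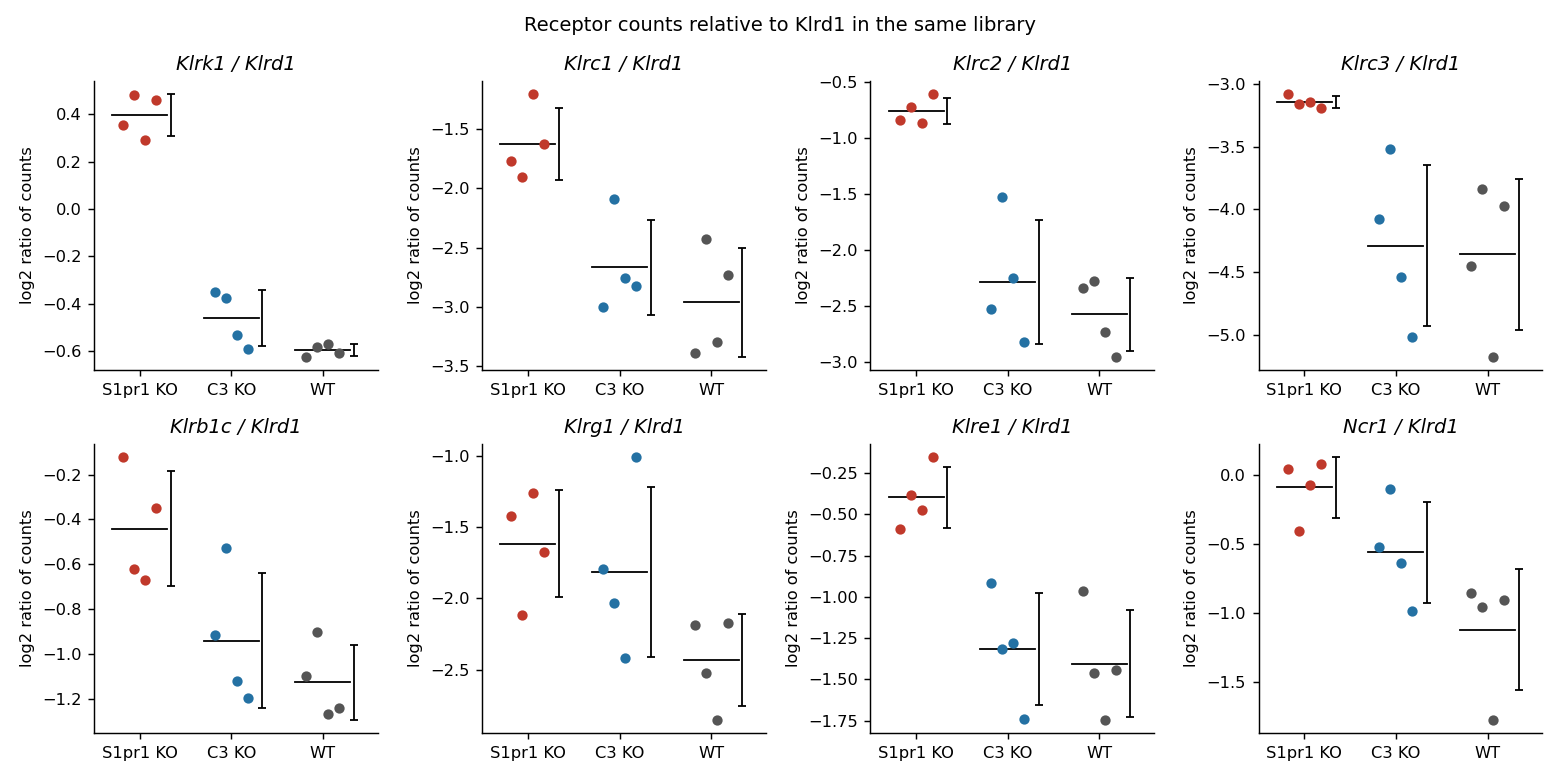
Each panel plots the log2 ratio of the counts of 1 receptor gene to those of Klrd1 in the same library (vertical axis) for S1pr1 KO, C3 KO and WT. Points are libraries, lines are means and bars are SD (n = 4). Klrk1 to Klrd1 lies between 0.29 and 0.48 in S1pr1 KO and between -0.63 and -0.57 in WT.

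Set against Ncr1 in place of Klrd1, Klrc2 was higher in S1pr1 KO than in WT without overlap (mean log2 ratio -0.67 ± 0.248 in S1pr1 KO and -1.46 ± 0.458 in WT, SD, n = 4 each), a pattern seen in 0.0643% of all genes. Klrd1 to Ncr1 was lower without overlap (0.090 ± 0.221 in S1pr1 KO and 1.12 ± 0.437 in WT), as were the ratios of 63.2% of all genes. The ratios of Klrk1, Klrc1, Klrc3, Klrb1c, Klrg1 and Klre1 to Ncr1 overlapped between S1pr1 KO and WT. Between S1pr1 KO and C3 KO, the ratios to Ncr1 of Klrc2 (difference 1.05), Klrc3 (0.67) and Klrc1 (0.57) were higher without overlap, against 0.0593% of all genes.

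The neighbours of the receptor genes in the NK gene complex differed by gene class. The complex, taken from the first to the last killer lectin gene of chromosome 6 (128586190 to 131224325 of GRCm39, 2638.14 kb), held 120 genes of the table, of which 47 were tested. Over all genes tested, 49.8% had a positive fold change in S1pr1 KO against WT, 1.35% were called and 0.821% were called as higher. The 7 receptor genes within the complex were all higher in S1pr1 KO than in WT (median log2 fold change 1.10, 1 called). Of 12 Ly49 genes, whose products bind class I molecules, 11 were higher (median 1.34, 4 called). The 4 called, all higher, were Klra9 (2.16, SE 0.332, edgeR adjusted p = 0.0145), Klra8 (2.07, SE 0.375, edgeR adjusted p = 0.0309), and the pseudogenes Klra13-ps (1.98, SE 0.419, edgeR adjusted p = 0.0444) and Klra14-ps (1.91, SE 0.400, edgeR adjusted p = 0.0435). Ly49 genes are close copies, so their reads may be shared. The 5 other killer lectin genes were also all higher (median 0.40, 0 called), with Klri2, which can pair with the Klre1 product, at 1.35 (SE 0.369, edgeR adjusted p = 0.0844). Of the 23 other genes in the window, 7 were higher and 16 lower, with a median of -0.18 and 0 called. In C3 KO against WT the medians were 0.0092 for the 7 receptors, 0.39 for the Ly49 genes, -0.048 for the other killer lectins and -0.040 for the other genes, with 0 called in each class.

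**Figure D4:**
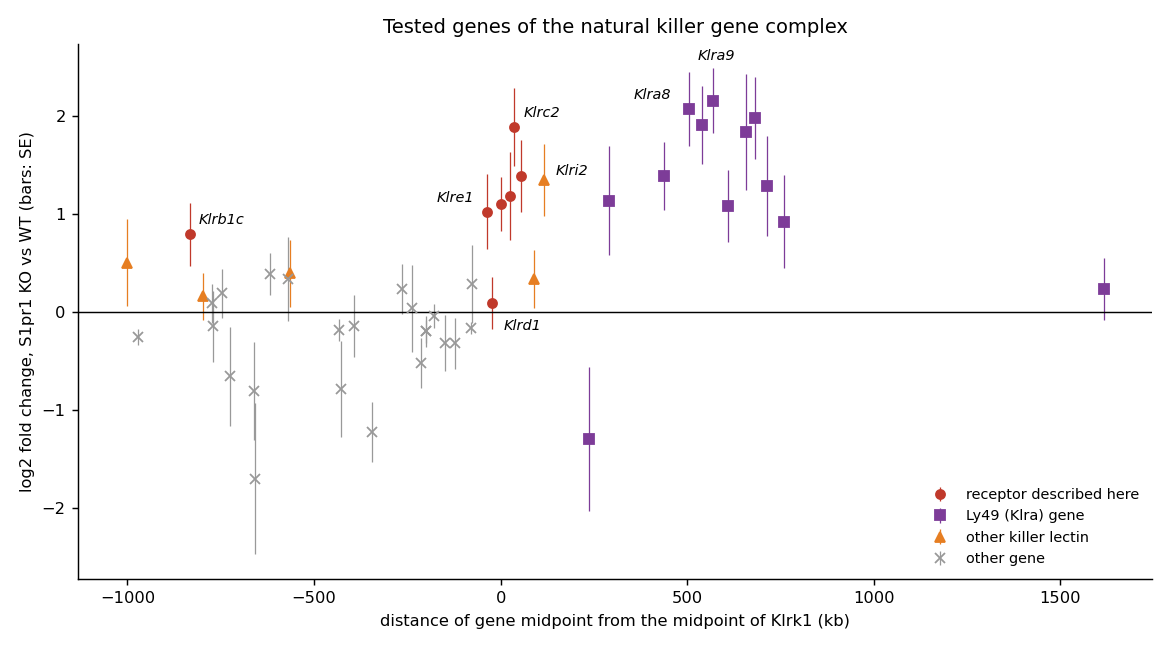
Log2 fold change in S1pr1 KO vs WT (vertical axis, bars are SE) of the 47 tested genes of the NK gene complex against the distance of each gene's midpoint from that of Klrk1 in kb (horizontal axis). Receptors described here are red circles, Ly49 genes purple squares, other killer lectins orange triangles and other genes grey crosses. The receptors and most Ly49 genes lie above 0, with Klrd1 at 0.097, while 16 of the 23 other genes lie below 0.

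Of 16 genes that NK cells express besides the receptors described here (NK core genes), 15 had a higher mean and 1 a lower mean in S1pr1 KO than in WT, with a median of 0.32, 0 called and 4 with an unadjusted p under 0.05. Over all genes, 18% had such a p in either direction. Gzmb (1.10, SE 0.309, edgeR adjusted p = 0.0892), the pore-forming perforin gene Prf1 (1.03, SE 0.294, edgeR adjusted p = 0.0950) and Gzma (0.85, SE 0.325, edgeR adjusted p = 0.191) had the lowest p. The mean log2 CPM of the list was 2.81 to 3.12 in S1pr1 KO, 1.33 to 2.89 in C3 KO and 1.88 to 2.89 in WT, with the low ends in the library labelled C3 KO 4 and in WT 3. The S1pr1 KO range overlapped with both others. Against C3 KO, 15 of the 16 were higher (median 0.48, 0 called), and in C3 KO against WT 6 were higher and 10 lower (median -0.059, 0 called). With the NK core score as a covariate, Klrc2 (1.40, edgeR adjusted p = 0.00891) and Klrk1 (0.76, edgeR adjusted p = 0.0169) passed against WT. That fit called 1284 of all genes (6.35%), where the fit without the score called 274 (1.35%).

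Most adapters and signalling genes of these receptors had lower means in S1pr1 KO lungs. Of 15 such genes, 3 were higher and 12 lower in S1pr1 KO against WT (median -0.24, 0 called, 4 with an unadjusted p under 0.05, against 18% of all genes). Tyrobp, encoding the DAP12 adapter of NKG2C, was at 41.6 to 74.7 CPM in S1pr1 KO and 44.7 to 87.2 CPM in WT, and Hcst, encoding the DAP10 adapter of NKG2D, was at 2.09 to 3.93 CPM in S1pr1 KO and 3.02 to 4.47 CPM in WT. Both overlapped between the groups, with log2 fold changes of -0.11 and -0.32. The inositol phosphatase gene Inpp5d was at -0.27 (SE 0.0939, edgeR adjusted p = 0.163), and the kinase gene Syk at -0.51 (SE 0.199, edgeR adjusted p = 0.199). Other cells, myeloid cells among them, express several of these genes. The list median was -0.24 against C3 KO as well, and -0.0037 in C3 KO against WT, with 0 called in each.

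Ligands of the receptors showed no call either. Of 15 ligand genes listed, 10 were tested, of which 4 were higher and 6 lower in S1pr1 KO against WT (median -0.19, 0 called, 2 with an unadjusted p under 0.05). That count is near the share of all genes, 18%. H2-T23, which encodes Qa-1, was at 196 to 241 CPM in S1pr1 KO and 219 to 294 CPM in WT. The NKG2D ligands Ulbp1, Raet1e and H60c had log2 fold changes of 0.32, 0.59 and -0.42. The cadherin gene Cdh2 was at 0.79 (SE 0.242, edgeR adjusted p = 0.114), with 9.29 to 17.6 CPM in S1pr1 KO and 6.44 to 8.83 CPM in WT. Raet1e was at 0.72 in C3 KO against WT (SE 0.281, edgeR adjusted p = 0.387), with no overlap between the groups. The medians were -0.056 against C3 KO and -0.11 in C3 KO against WT, with 0 called in each. Of 10 tested genes of NK-supporting cytokines and their receptors, 3 were higher and 7 lower in S1pr1 KO against WT (median -0.31, 0 called, 4 with an unadjusted p under 0.05, against 18% of all genes), with Il18r1 at -0.50 (SE 0.116, edgeR adjusted p = 0.0574) and Il15 at -0.0086.

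Further lectin-like receptors outside the 9 gave mixed values. Of 10 other killer lectin genes listed by name 8 were tested, with 6 higher and 2 lower in S1pr1 KO against WT (median 0.33, 0 called, 3 with an unadjusted p under 0.05, against 18% of all genes). Cd69, an activation marker of lymphocytes that lies in the same complex, was at 2.67, 2.24, 4.41 and 1.93 CPM in S1pr1 KO, against 7.51, 9.05, 3.87 and 5.84 CPM in WT. It was lower by value, at -1.22 on the log2 scale, and did not pass (SE 0.305, edgeR adjusted p = 0.0685). Of the Ly49 genes on the list 10 of 11 were tested, 9 of them higher (median 1.21, 2 called, against 1.35% of all genes). Against C3 KO the list medians were 0.32 for the other killer lectins and 0.95 for Ly49, and in C3 KO against WT they were -0.079 and 0.34, with 0 called in each. The summed Ly49 level was 24.6 to 31.8 CPM in S1pr1 KO, 8.73 to 25.4 CPM in C3 KO and 8.55 to 20.4 CPM in WT.

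**Figure D5:**
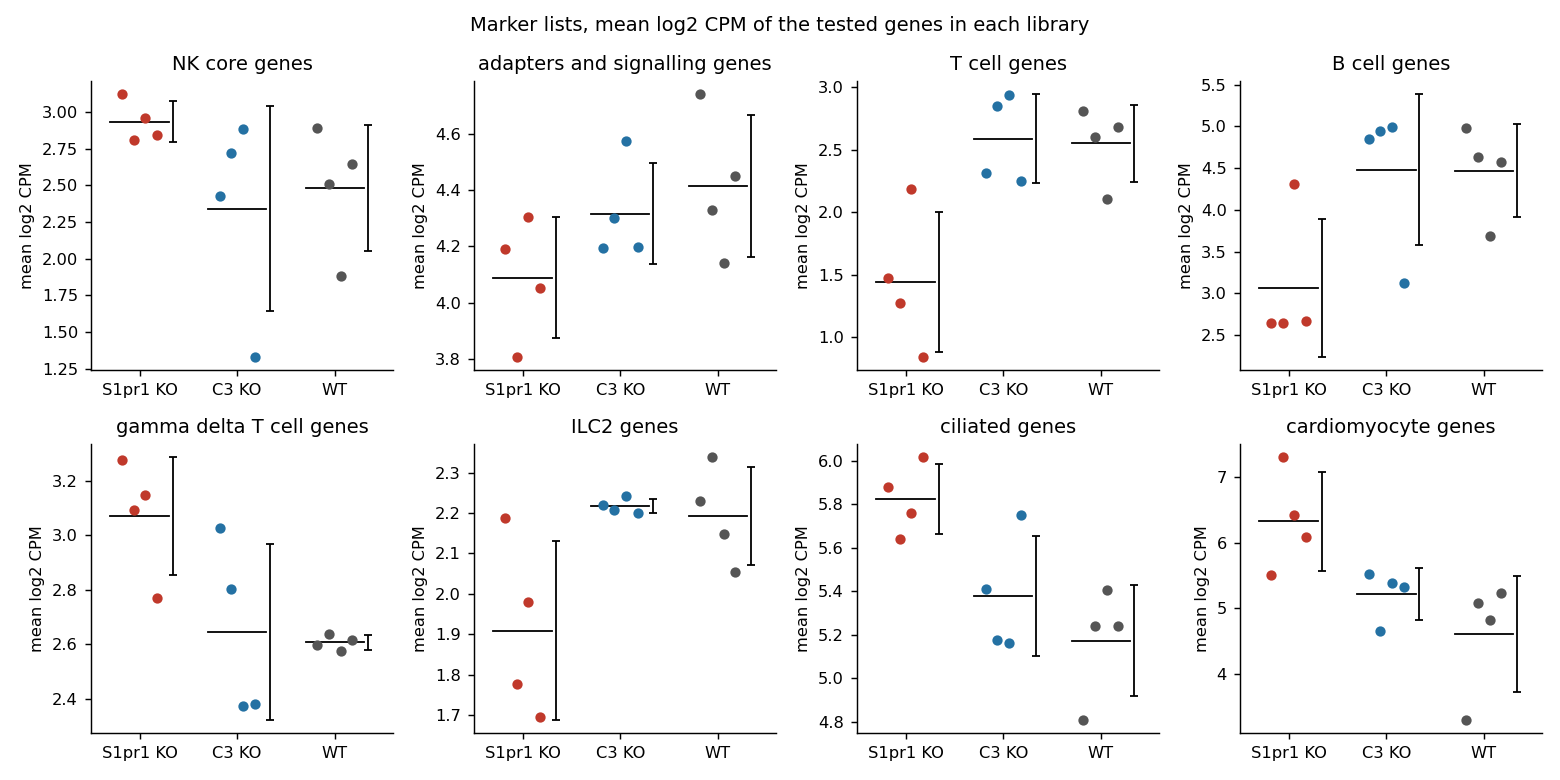
Each panel plots the mean log2 CPM of the tested genes of 1 list (vertical axis) in the S1pr1 KO, C3 KO and WT libraries. Points are libraries, lines are means and bars are SD (n = 4). NK core genes lie at 2.81 to 3.12 in S1pr1 KO and 1.88 to 2.89 in WT, while T cell genes lie at 0.84 to 2.18 in S1pr1 KO and 2.11 to 2.81 in WT.

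Genes of other cell types also differed between S1pr1 KO and WT, lower in some lists and higher in others. Their part in the receptor values was not tested beyond the fits with their scores. Of all genes tested, 1.35% were called in S1pr1 KO against WT. All 14 T cell genes were lower (median -0.97, 2 called: Cd4 fell by 1.10 and Cd6 fell by 1.73, with edgeR adjusted p of 0.0276 and 0.0389). Their summed level was 37.0 to 71.8 CPM in S1pr1 KO, 81.4 to 115.8 CPM in C3 KO and 69.6 to 113.3 CPM in WT. All 5 B cell genes were lower (median -1.31, 0 called, 5 with an unadjusted p under 0.05 against 18% of all genes, 31.9 to 101.7 CPM summed in S1pr1 KO and 68.9 to 165.3 CPM in WT). Of 5 tested genes of gamma delta T cells, which can carry NKG2D and other NK receptors, 3 were higher and 2 lower (median 0.040, summed 183.6 to 227.2 CPM in S1pr1 KO and 155.8 to 217.0 CPM in WT). Sox13 made up most of that sum, at a mean of 172.2 CPM in S1pr1 KO and 167.5 CPM in WT. Its log2 fold change was also the median. The 2 that passed, both higher, were Scart1, a scavenger receptor (2.39, SE 0.268, edgeR adjusted p = 0.00716), and Trdc, the constant segment of the delta chain (1.75, SE 0.266, edgeR adjusted p = 0.0145). Trdc was at 3.71, 4.45, 2.71 and 4.45 CPM in S1pr1 KO, against 1.12, 1.13, 1.46 and 0.850 CPM in WT.

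Of 9 genes of type 2 innate lymphoid cells 3 were higher and 6 lower (median -0.075, 0 called, 3 with an unadjusted p under 0.05, 95.1 to 112.1 CPM summed in S1pr1 KO and 96.4 to 120.9 CPM in WT), and of 4 regulatory T cell genes 2 were higher and 2 lower (median -0.60, 0 called, 2 with an unadjusted p under 0.05, 10.1 to 12.1 CPM summed in S1pr1 KO and 11.3 to 13.1 CPM in WT). Ciliated cell genes were higher in 9 of 9 (median 0.64, 4 called) and cardiomyocyte genes in 8 of 8 (median 1.71, 2 called). The cardiomyocyte genes summed to 736.9 to 2656 CPM in S1pr1 KO and 157.9 to 605.2 CPM in WT, and the ciliated genes to 826.8 to 1004 CPM in S1pr1 KO and 592.7 to 734.0 CPM in WT. Lung identity genes were higher in 2 and lower in 4 of 6 (median -0.22, 0 called, 3 with an unadjusted p under 0.05). Over all genes, 18% had an unadjusted p under 0.05 in this comparison and 1.35% were called. No tested gene of these cell type lists was at 0 in any library. With the T cell score or the cardiomyocyte score as a covariate Klrc2 stayed positive (2.63 and 2.39) but did not pass (edgeR adjusted p = 0.392 and 0.177), and with the ciliated score it was 3.43 and passed (edgeR adjusted p = 0.0430). Of all genes, 0 passed with the T cell score, 1 (0.00494%) with the cardiomyocyte score and 30 (0.148%) with the ciliated score. Against C3 KO the medians were -1.11 for T cell, -1.44 for B cell, 0.11 for gamma delta T cell, 0.41 for ciliated and 1.22 for cardiomyocyte genes, with 0 called in each. In C3 KO against WT they were 0.065 for T cell, 0.11 for B cell, 0.14 for gamma delta T cell, 0.17 for ciliated and 0.49 for cardiomyocyte genes, again with 0 called in each.

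Without the libraries labelled S1pr1 KO 2 and C3 KO 4, the median log2 fold changes of the 14 lists and of the 4 gene classes of the NK gene complex kept their sign in 17 of 18 in S1pr1 KO against WT, the exception being the gamma delta T cell list (-0.026), and in 18 of 18 in S1pr1 KO against C3 KO. In C3 KO against WT 11 of 18 kept it. The others became 0.16 for NK core genes, 0.098 for adapters and signalling, 0.10 for ligands, 0.0017 for the list of other killer lectins, -0.23 for regulatory T cell genes, and 0.058 and 0.051 for the other killer lectins and other genes of the complex. In S1pr1 KO against WT the fit without these libraries called 2.31% of all genes, where the fit with all libraries called 1.35%. In it 2 NK core genes passed, Gzmb (1.16, edgeR adjusted p = 0.0306) and Prf1 (1.00, edgeR adjusted p = 0.0395). Of the Ly49 genes of the complex 5 passed, as did 6 ciliated genes, the T cell gene Cd4, the gamma delta T cell genes Scart1 and Trdc, and Icos of the type 2 innate lymphoid list (-0.89, edgeR adjusted p = 0.0437), whereas 0 cardiomyocyte genes did. All 8 ratios to Klrd1 again lay higher in S1pr1 KO than in WT without overlap, against 1.88% of all genes, and 7 of 8 lay higher than in C3 KO, all but Klrb1c, against 4.19%. Klrk1 to Klrd1 then differed by 0.97 between S1pr1 KO and WT. Between C3 KO and WT, 2 of the 8 ratios to Klrd1 lay higher in C3 KO without overlap, against 1.03% of all genes. They were those of Klrk1 (a difference of 0.18) and Ncr1 (0.70). Klrc2 to Ncr1 stayed higher in S1pr1 KO than in WT without overlap (a difference of 0.67), against 0.0692% of all genes. The correlation between Klrk1 and Klrd1 over the 10 libraries was 0.981, with 0.408 to 0.923 between the other pairs without Klrg1 and 0.526 to 0.890 for pairs with Klrg1. In FPKM the order of the 9 genes was the same in S1pr1 KO, and in C3 KO Klrg1 and Klrb1c changed places.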

How the data were processed

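RNA of whole lung was sequenced by a commercial provider with Illumina protocols after storage in RNAlater and extraction with QIAzol, per the labels' protocols. The authors deposited whole-number read counts per gene for 12 libraries, with 4 a group and no pooling stated, and FPKM values of the same libraries. CASAVA and STAR, and the builds GRCm39 and mm39, are named without versions in the submitters' processing notes. How reads were counted per gene, and whether strand was used, is not stated there, so similar or overlapping genes may share reads. Groups were taken from titles and genotype labels, and library numbers follow the order of deposition.

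Counts were analysed with edgeR 4.0.16 in R 4.3.3 (filterByExpr, TMM scaling, a mean per group, quasi-likelihood test, 9 residual degrees of freedom). A gene was called at an adjusted p under 0.05 (Benjamini-Hochberg over 20229 genes). CPM use TMM library sizes, and list levels are means of log2 CPM with a prior count of 2. The standard error (SE) of a log2 fold change was derived from its F statistic. Log2 ratios to Ncr1 and Klrd1 were taken from counts plus 0.5. The code was tested on simulated data. Libraries of a group differed by more than sampling noise (chi-square per degree of freedom of 13.35 or more), so all 12 were kept. With totals of 32274797 reads or more, the lowest member count was 4 reads. Sequences came from RefSeq promoter windows (GRCm38.p6) and GENCODE M21, aligned with Biopython 1.88. No genome sequence of the files' build was used here.

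The receptors, gene lists, tests and motifs were chosen with earlier results of these data known, so no list gets a test of its own. The genes named are the 9 receptors, the targeted genes, members of each list from those of lowest p in a comparison, called genes of the NK gene complex and the 5 genes most like Ncr1, Klrk1, Klrc2 and Klrg1. Other list members, such as Tyrobp, Hcst, H2-T23, Ulbp1, H60c and Il15, were named for their role after their values were seen, as was the set of ratios to Klrd1. The lists were NK core, adapters and signalling, receptor ligands, other killer lectins, Ly49, NK cytokine axis, T cell, gamma delta T cell, type 2 innate lymphoid, regulatory T cell, B cell, ciliated, cardiomyocyte and lung identity genes. Alternatives were DESeq2 1.42.0, limma 3.58.1 (voom with quality weights, and log2(FPKM + 1) or log2(FPKM + 0.1) where 4 libraries reached 0.5 FPKM), other scalings, filters, fits of the groups compared alone, a robust fit, Klrc reads added, list scores as covariates and libraries left out. Leaving out 2 libraries for the lists, gene complex, ratios, FPKM order and correlations was chosen after seeing the data.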

Additional observations from a re-analysis of the deposited data

How the results depend on the processing

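No paired analysis was possible because the labels give no replicate numbers that groups share. Of the 9 receptors, 1 passed in S1pr1 KO against WT, where 1.35% of all genes did. The count was 3 with DESeq2, limma voom or only the groups compared, which called 5.3%, 4.59% and 1.96% of all genes. It was 2 with the NK core or ciliated score as a covariate (6.35% and 0.148% of all genes). It was also 2 without both libraries labelled C3 KO 4 and S1pr1 KO 2 (2.31%). It was 0 with log2(FPKM + 0.1) (0.856%) and with the T cell or cardiomyocyte score (0% and 0.00494%). With Klrc1, Klrc2 and Klrc3 or Klrc2 and Klrc3 reads added it was 0 as well (1.34% each). Leaving out each library in turn gave 0 to 3. In S1pr1 KO against C3 KO the count of 0 became 3 with DESeq2 (1.4% of all genes) and 1 with the NK core score (2.46%). Leaving out libraries gave 0. In C3 KO against WT it was 0 in every alternative run. Klrc2 kept its call against WT in 15 of 27 alternatives, Klrk1 gained one in 7 of 29 and Klrc1 in 4 of 28, and all log2 fold changes of these 3 genes were positive.

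Over all genes, the 274 called in S1pr1 KO against WT became 1223 with DESeq2, 928 with limma voom and 385 with only the groups compared. They became 171 with log2(FPKM + 1) and 150 with log2(FPKM + 0.1). With the scores they became 1284 (NK core), 0 (T cell), 30 (ciliated) and 1 (cardiomyocyte). They became 473 without both doubtful libraries, and 2 to 571 with 1 library left out. The 0 called in S1pr1 KO against C3 KO became 295 with DESeq2, 36 with limma voom, 15 with no filter, 7 with log2(FPKM + 1), 6 with log2(FPKM + 0.1), 498 with the NK core score and 3 without both libraries, and 0 to 13 with 1 left out. The 2 called in C3 KO against WT became 155 with DESeq2, 21 with limma voom, 1 with only the groups compared or the ciliated score, 6 with either FPKM scale, 4 with the NK core score and 31 without both libraries, and 1 to 32 with 1 left out.

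The sign of some receptor values turned. In S1pr1 KO against WT, Klrd1 was -0.23 with the NK core score and -0.068 to 0.23 with 1 library left out (lowest without WT 3). In S1pr1 KO against C3 KO, the NK core score gave -0.18 for Klrd1 and -0.0092 for Ncr1, and leaving out both libraries gave -0.019 for Klrd1. In C3 KO against WT, Klre1 was 0.036 with limma voom, 0.080 with the NK core, 0.34 with the ciliated and 0.089 with the cardiomyocyte score and 0.21 without both libraries. Klrk1 was -0.021 with log2(FPKM + 0.1) and -0.0085 with the T cell score, Klrc3 was 0.031 with the NK core and 0.22 with the ciliated score and 0.23 without both libraries, and Klrd1 was 0.12 with the ciliated score and 0.068 without both. With 1 library left out, values in C3 KO against WT ran from -0.30 to 0.26 for Klre1, -0.19 to 0.24 for Klrk1, -0.39 to 0.23 for Klrc3, -0.38 to 0.069 for Klrd1, -0.080 to 0.40 for Klrc1, -0.12 to 0.32 for Klrb1c and -0.038 to 0.55 for Klrc2. The highest of these came without the library labelled C3 KO 4 except for Klre1, where it came without WT 1. The cause of these changes was not tested. Depth limits Klrc3 most, with 4 reads in its lowest library.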
